A study of Rattus norvegicus with 15 samples.

Results

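The D-type cyclins Ccnd1, Ccnd2 and Ccnd3, their kinases Cdk4 and Cdk6, the kinase inhibitors Cdkn1a, Cdkn1b and Cdkn1c, and the pocket proteins Rb1 and Rbl1 were followed by RNA-seq in rat H9c2 cells that left the growing state in low serum. The members were chosen by name as the classical regulators of the G1 phase, and 9 of the 10 listed genes were measured among the 11574 genes of the count table. Cdkn1c was not analysed here. H9c2 is a wild-type myoblast line from rat heart muscle whose cells fuse into myotubes when serum is withdrawn. Cultures were grown in 10% serum, seeded, left to attach, and then moved to 1% serum without retinoic acid (-RA) or with 1 µM all-trans retinoic acid added daily (+RA). RNA was taken at day 0 without RA (T0), and at day 7 and day 14 in each arm (T7-RA and T7+RA, T14-RA and T14+RA), with 3 cultures in each group and 15 libraries in all. All libraries came from the same line and carried no engineered allele. The sample titles name H9c2 throughout, although the final digit of the cell line field runs upward from sample to sample in the day 7 and day 14 groups. By the study's timing, T0 falls at the end of attachment, when serum was lowered. Between T0 and the others, time in culture, the step from 10% to 1% serum and time in low serum cannot be told apart.

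In a dividing cell, mitogens raise the D cyclins, which bind CDK4 or CDK6 and phosphorylate the retinoblastoma protein family. Phosphorylated pocket proteins release E2F transcription factors, which switch on the genes for DNA replication. Myoblasts have to leave this cycle before they fuse, and the CIP/KIP inhibitor p21, the product of Cdkn1a, and a hypophosphorylated RB1 are the best known parts of that exit in skeletal muscle, where cyclin D3 is also known to accumulate. Messenger RNA does not report phosphorylation or protein stability, which control several of these proteins.

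Part of the proliferation readout fell at day 7 and most of it at day 14. Mki67, which encodes the proliferation antigen Ki-67, was at 746, 537 and 869.9 CPM (the count relative to library size, scaled between libraries by TMM) in T0, and without RA it was at 402, 341 and 462 on day 7 and at 203, 198 and 198 on day 14. With RA it was at 373, 409 and 394 CPM on day 7 and at 151, 105 and 198 on day 14, so that every day 14 library lay below every day 7 library and every day 7 library below every T0 library. Of 9 proliferation genes with a row, 5 fell at day 7 and 7 fell at day 14, where 4.44% and 8.85% of all genes fell by the same test (described below), and 0 rose. Cdk1, Ccnb1, Top2a and Pcna were not called at day 7, and Cdk1, the kinase of mitotic entry, was at 123 to 154 CPM in T7-RA against 135 to 150.1 in T0 (log2 −0.03, adjusted p = 0.9). Library totals ran from 508397 to 1030820 counts, so that 1 count was worth 0.965 to 2.1 CPM, and Cdk6, Rb1 and Rbl1, with 210, 333 and 193 counts over all 15 libraries, are the least precise members.

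The libraries held the markers of differentiating muscle. Of 9 myoblast and skeletal muscle markers, 8 had a row and 7 rose at day 14 over both arms together (8.47% of all genes did). The summed level of the 8 was 279 to 321 CPM in T0, 10958 to 11513 in T14-RA and 4797 to 5578 in T14+RA. Among the 7, Mymk was above T0 (17.9 to 39.8 CPM) in T14-RA (112 to 130.4) but not in T14+RA (19.3 to 31.4). The marker not called, Myod1, was at 71.3 to 150.1 CPM in T0, 63.7 to 95.6 in T14-RA and 56.2 to 77 in T14+RA. Of 10 cardiac markers only Gata4 and Actc1 had a row, and Actc1, the cardiac actin gene, was at 2.1 to 4.14 CPM in T0, 234 to 276 in T14-RA and 19.3 to 47.1 in T14+RA. Tek was the 1 with a row of 4 endothelial markers (0 to 6.29 CPM), and of 4 leukocyte markers none had a row. All 4 smooth muscle markers had a row, with a sum of 15231 to 16810.3 CPM in T0 against 3334 to 3443 in T14-RA. Acta2, Tagln and Cnn1 fell at T14 (log2 −2.28, −1.73 and −2.41), and Myh11, the least abundant, was at log2 0.32 (adjusted p = 0.622). A row was also found for 4 of 6 fibroblast markers, with sums of 18448 to 37564 CPM over all libraries, most of it Col1a1. Within that list Col1a1 fell at T14, whereas Dcn and Lum, matrix proteoglycan genes at 0 in all 3 T0 libraries, were at 42.5 to 56.5 and 25.4 to 30.1 CPM in T14-RA and at 96.5 to 154 and 4.71 to 7.25 CPM in T14+RA. Many of these markers moved with culture time or RA, and their part in the results below was not tested. Tgm2, a direct retinoic acid target, stood at 0 to 14.5 CPM in the 9 libraries without RA and at 34.3 to 75.2 CPM in the 6 libraries with RA. In bulk RNA, fewer cells of a type and less RNA per cell cannot be told apart.

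**Figure D1:**
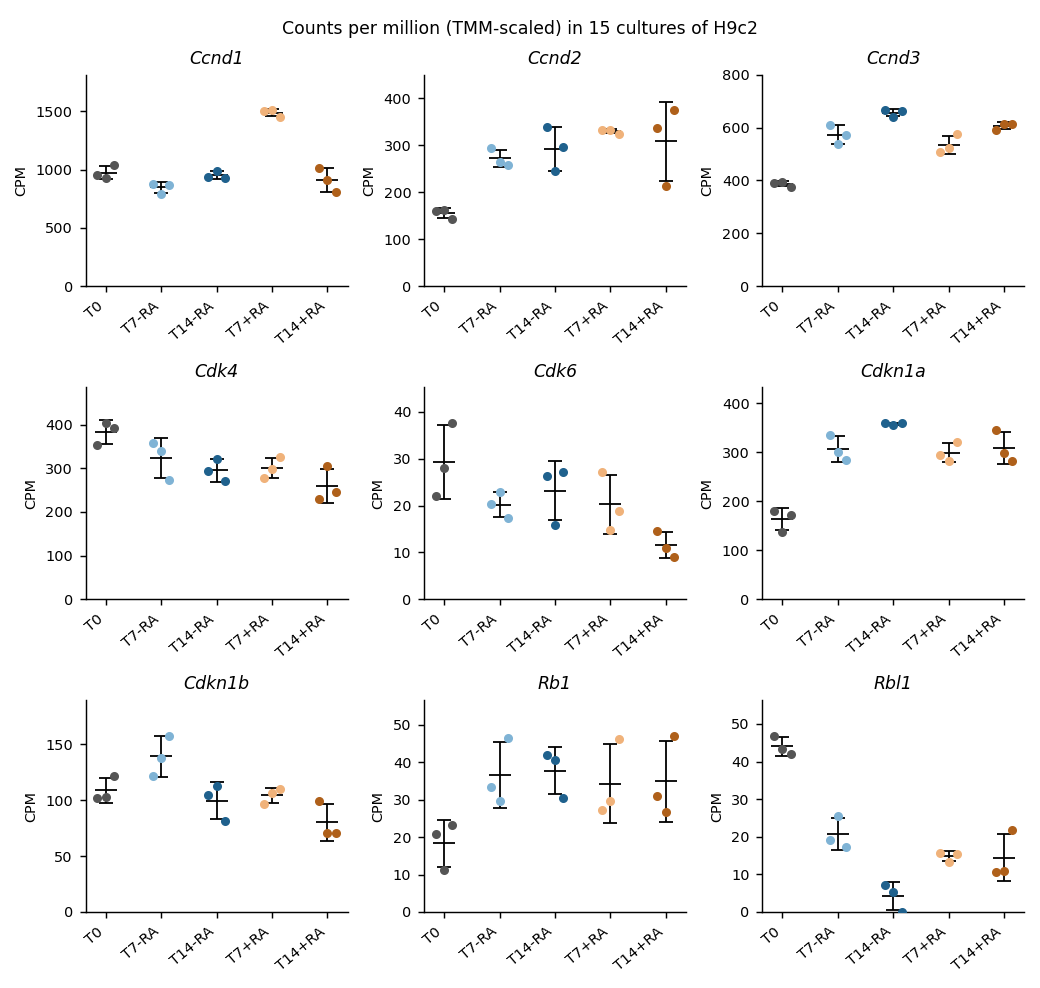
TMM-scaled CPM of the 9 measured G1 regulators in each of the 15 libraries, by group of 3 cultures; points are cultures, the longer bar is the mean and the whiskers the SD (n = 3), and each vertical axis starts at 0. Ccnd2, Ccnd3 and Cdkn1a sit above T0 in every later library, Rbl1 sits below T0 in every later library, and Ccnd1 stands out in T7+RA at 1453 to 1513 CPM.

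The effect of time was estimated from all 15 libraries with a model that has a term for day 7 against day 0 (T7), a term for day 14 against day 0 (T14) and a term for RA, and a gene was called at a Benjamini-Hochberg adjusted p under 0.001 over all genes in edgeR's quasi-likelihood test. At T7, 8.73% of all genes were called (4.29% up and 4.44% down), and 4 of the 9 members were: Cdkn1a, Ccnd2 and Ccnd3 rose and Rbl1 fell. At T14, 17.3% of all genes were called (8.47% up and 8.85% down), and the same 4 members were, each in the same direction. The median log2 change over the 9 members was 0.33 at T7 and −0.08 at T14, beside 0.02 and 0.05 over all genes. The other 5 members were not called at either time.

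Ccnd1 (ENSRNOG00000020918, cytoband 1q42) encodes cyclin D1, the D cyclin most closely tied to growth factor signals. It was at 957, 931 and 1038 CPM in T0, at 878, 793 and 871 in T7-RA, then at 941, 992 and 925 in T14-RA. In the +RA arm it was at 1502, 1513 and 1453 CPM on day 7 and at 1012, 912 and 812 CPM on day 14. All T7+RA libraries lay above the other 12, whereas T14-RA and T14+RA overlapped each other and T0. The time terms were small, with a log2 change of 0.03 (SE 0.162, adjusted p = 0.918) at T7 and −0.24 (SE 0.157, adjusted p = 0.252) at T14 in edgeR. When each arm was set against T0 on its own, a comparison added after the data were seen, the day 7 change was −0.20 (adjusted p = 0.115) without RA and 0.61 (adjusted p = 2.32e-07) with RA, where 8.78% and 10.4% of all genes were called. The day 14 change was −0.03 (adjusted p = 0.826) without RA and −0.09 (adjusted p = 0.481) with RA, both nearer 0 than the T14 term, which assumes the same RA change on both days.

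Ccnd2 (ENSRNOG00000057710, cytoband 4q42), the gene of cyclin D2, stood at 160, 163 and 143 CPM in T0. It was at 293, 265 and 257 CPM in T7-RA and at 338, 244 and 295 CPM in T14-RA. In the +RA arm it was at 332, 333 and 324 CPM on day 7 and at 336, 214 and 375 CPM on day 14. No later library reached down to the T0 range, and the T14+RA cultures were the most spread. Ccnd2 rose 1.81-fold at T7 (log2 0.86, SE 0.144, adjusted p = 6.38e-06) and 1.82-fold at T14 (log2 0.86, SE 0.144, adjusted p = 2.15e-06), with no further step between the days (log2 0.01, 95% interval −0.19 to 0.20).

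Ccnd3 (ENSRNOG00000050258, cytoband 9q12) encodes cyclin D3, the D cyclin known to persist in differentiated muscle. Its level was 392, 396 and 377 CPM in T0, 609.6, 538 and 572 CPM in T7-RA and 667, 641 and 662 CPM in T14-RA. With RA it was 507, 524 and 574 CPM on day 7 and 592, 613 and 615 CPM on day 14. The T0 range lay below all other libraries, and in each arm the day 14 libraries lay above the day 7 libraries. The log2 change was 0.56 (SE 0.102, adjusted p = 2.12e-05) at T7 and 0.75 (SE 0.102, adjusted p = 1.68e-08) at T14, a 1.69-fold rise, and the step from day 7 to day 14 was 0.19 (SE 0.0732) and did not pass the threshold (adjusted p = 0.069). Ccnd3 thus rose at T7 and T14, where 5 and 7 of the 9 proliferation genes fell, beside 4.44% and 8.85% of all genes.

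The D cyclins were then compared per kilobase of listed transcript length, which allows levels of different genes to be set side by side within the limits of the annotation. Ccnd1 made up 45.0% ± 2.44 (SD, n = 3) of the summed D cyclin level in T0, and without RA it made up 31.1% ± 0.946 on day 7 and 31.3% ± 2.27 on day 14. Ccnd3 made up 35.7% ± 1.00 of that sum in T0, 42.0% ± 0.339 on day 7 without RA and 43.0% ± 1.01 on day 14. Ccnd2 was the smallest of the 3 in all of these, at 19.3% ± 1.44, 26.9% ± 1.13 and 25.7% ± 3.08 of the sum. Per listed length, the leading D cyclin was Ccnd1 in T0 and Ccnd3 in T7-RA. This order rests on the listed lengths: as shares of the summed counts, with no division by length, Ccnd1 led in every group and went from 64.2% in T0 to 50.1% in T7-RA, while Ccnd3 went from 25.6% to 33.9%. In T7+RA the order was that of T0 again, with Ccnd1 at 43.3% ± 1.2 and Ccnd3 at 31.0% ± 1.77, and in T14+RA Ccnd3 led, at 41.1% ± 3.58. The shares of Ccnd1 (31.0% ± 3.79) and Ccnd2 (27.9% ± 6.07) overlapped there, and in replicate 3 Ccnd2 was above Ccnd1 (33.2% against 26.6%). These shares are given as a description, without a test. The sum itself was not lower in any later group: it was 567 to 571 CPM per kb in T0, 677 to 757 in T7-RA, 769 to 834 in T14-RA, 895 to 911 in T7+RA and 711 to 813 in T14+RA.

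**Figure D2:**
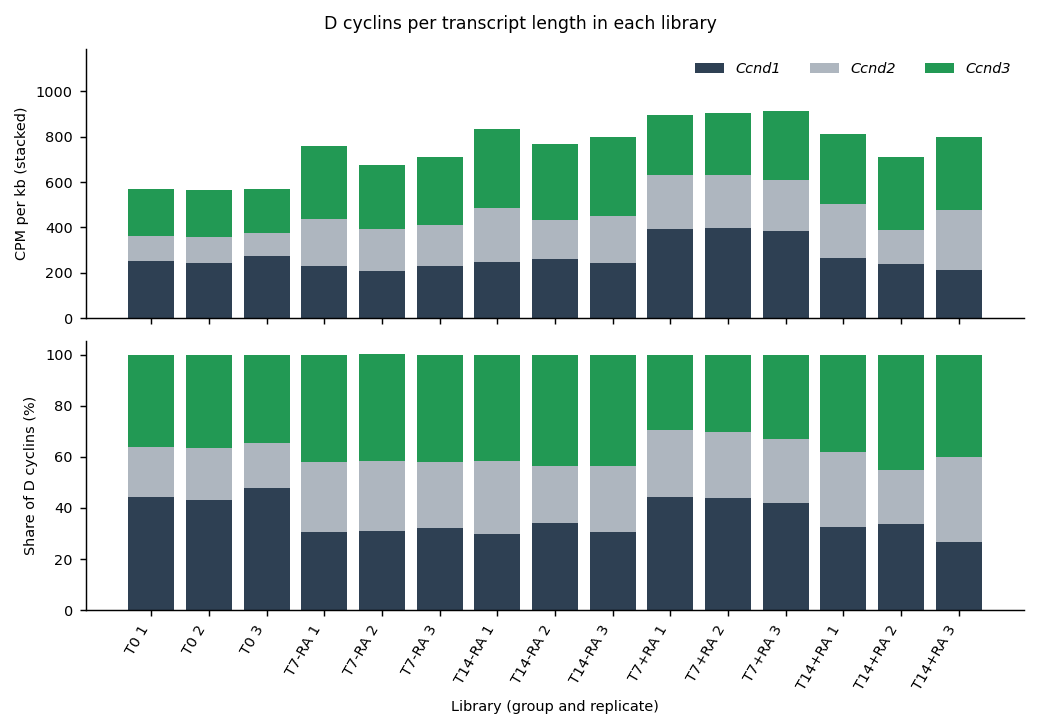
Levels of Ccnd1, Ccnd2 and Ccnd3 in each library per transcript length, stacked in CPM per kb (top) and as a share of their sum in percent (bottom); each bar is 1 culture. Ccnd1 holds 43.1 to 47.7% of the sum in T0 and 41.9 to 44.1% in T7+RA, and 26.6 to 33.9% in the other 3 groups.

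Cdk4 (ENSRNOG00000025602, cytoband 7q22), the main catalytic partner of the D cyclins, had the highest level per kb of any member in T0, at 420.5 ± 29.7 CPM per kb. Its values were 353, 405 and 392 CPM in T0, 358, 341 and 273 in T7-RA and 293, 322 and 271 in T14-RA. With RA they were 279, 299 and 326 CPM on day 7 and 229.6, 305 and 245 on day 14. All day 14 libraries lay below T0, and only 1 day 7 library, T7-RA replicate 1, reached the T0 range. The log2 change was −0.21 (SE 0.115) at T7 and −0.39 (SE 0.116, adjusted p = 0.00556) at T14, short of the threshold. When each arm was set against T0 on its own, after the data were seen, the day 14 difference was −0.37 (adjusted p = 0.0119) without RA and −0.57 (adjusted p = 9.85e-05) with RA, where 15.7% and 19.7% of all genes were called.

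Cdk6 (ENSRNOG00000009258, cytoband 4q13), the other D cyclin kinase, was much lower, at 22.1, 28.1 and 37.7 CPM in T0, which came from 15 to 18 counts. Its level was 17.4 to 22.8 CPM in T7-RA, 15.9 to 27.1 in T14-RA, 14.8 to 27.1 in T7+RA and 9.06 to 14.5 in T14+RA. T14+RA was the lowest group and did not overlap T0, with 5 to 15 counts per library. The log2 change was −0.29 (95% interval −0.91 to 0.33) at T7 and −0.49 (−1.12 to 0.15) at T14. A fall or a small rise could not be separated in these terms at this depth. Each arm was also set against T0 on its own in edgeR, after the data were seen. The day 14 difference was −0.27 (adjusted p = 0.563) without RA and −1.23 (SE 0.359, adjusted p = 0.00453) with RA, short of the threshold.

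Cdkn1a (ENSRNOG00000000521, cytoband 20p12) encodes p21, which binds and restrains cyclin-CDK complexes. It rose from 179, 137 and 172 CPM in T0 to 336, 299.7 and 285 in T7-RA and 360.3, 356 and 359 in T14-RA. With RA it was at 294, 283 and 321 CPM on day 7 and 346, 299 and 283 on day 14. Every later library lay above the highest T0 library, and the +RA and -RA values on day 14 did not overlap, with -RA the higher. The rise was 1.93-fold at T7 (log2 0.95, SE 0.125, adjusted p = 1.97e-08) and 2.13-fold at T14 (log2 1.09, SE 0.125, adjusted p = 1.26e-10), and most of it was in place by day 7 (day 14 minus day 7 log2 0.14, adjusted p = 0.283).

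Cdkn1b (ENSRNOG00000007249, cytoband 4q43) encodes p27, a relative of p21 that is controlled largely by protein breakdown. It was at 102, 103 and 122 CPM in T0, at 122, 138 and 158 in T7-RA and at 105, 113 and 81.3 in T14-RA. In the +RA arm it was at 96.9, 107 and 109.7 CPM on day 7 and at 99.4, 70.7 and 70.7 CPM on day 14. T7-RA was the highest group and met T0 only at its edge, T14+RA lay wholly below T0, and the others overlapped it. The T7 term was 0.33 (SE 0.156, adjusted p = 0.119), the T14 term −0.08 (SE 0.162, adjusted p = 0.752), and the step from day 7 to day 14 was −0.41 (SE 0.118, adjusted p = 0.00887), short of the threshold. Under scaling by library size alone the T14 value was 0.03, so no direction is given for it.

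The pocket proteins did not behave alike. Rb1 (ENSRNOG00000016029, cytoband 15q11), the retinoblastoma gene, was at 20.7, 11.3 and 23.1 CPM in T0, at 33.4, 29.6 and 46.5 in T7-RA and at 42, 40.7 and 30.5 in T14-RA. With RA it was at 27.1, 29.5 and 46.3 CPM on day 7 and at 30.9, 26.7 and 47.1 CPM on day 14. All 12 later libraries lay above T0, but the counts behind them were small, 6 to 15 in T0 and 17 to 35 later. The log2 difference was 0.98 (SE 0.304, adjusted p = 0.0134) at T7 and 1.03 (SE 0.306, adjusted p = 0.00613) at T14, and neither passed the threshold.

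Rbl1 (ENSRNOG00000006921, cytoband 3q42) encodes p107, a pocket protein whose own gene is an E2F target and which is known to be most abundant in cycling cells. It was at 46.9, 43.2 and 41.9 CPM in T0, at 19.1, 25.5 and 17.4 in T7-RA and at 7.21, 5.31 and 0 in T14-RA. With RA it was at 15.7, 13.4 and 15.4 CPM on day 7 and at 10.6, 11 and 21.8 on day 14. T0 lay above all other groups and T14-RA below all others, with 6, 3 and 0 counts in its 3 libraries, and a count of 0 allows up to 5.08 CPM in the last of them. Rbl1 fell by 1.39 on the log2 scale at T7 (SE 0.325, adjusted p = 0.000872) and by 2.35 at T14 (SE 0.366, adjusted p = 5.23e-07), which left it at 0.197 of its T0 level. The T7 call was near the threshold and was lost when any 1 library other than T7-RA replicate 2 or T14-RA replicate 3 was left out, as it was by DESeq2 and limma-voom (adjusted p = 0.00205 and 0.00189). The T14 call held in each of these, and against T0 in each arm alone the day 14 log2 change was −3.24 without RA and −1.69 with RA. Per kb, Rbl1 stood above Rb1 in T0 (14.7 ± 0.865 against 5.86 ± 2.00 CPM per kb) and below it in T14-RA (1.39 ± 1.25 against 12.1 ± 2.02), with no overlap in either group.

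Seen together on the per kb scale, the members changed rank. In T0 the order was Cdk4, Ccnd1, Ccnd3, Ccnd2, Cdkn1a, Cdkn1b, Cdk6, Rbl1 and Rb1, and only Cdk6 and Rbl1 among these neighbours overlapped. In T14-RA it was Ccnd3, Cdk4, Ccnd1, Ccnd2, Cdkn1a, Cdkn1b, Cdk6, Rb1 and Rbl1, where Ccnd3 and Cdk4, Ccnd2 and Cdkn1a, and Cdk6 and Rb1 could not be separated. T7+RA was the only group led by Ccnd1, at 391 ± 8.33 CPM per kb against 331 ± 25.4 for Cdk4. The listed length of Cdk4 is 912 bases, close to a coding sequence alone, and a longer transcript would lower its place.

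**Figure D3:**
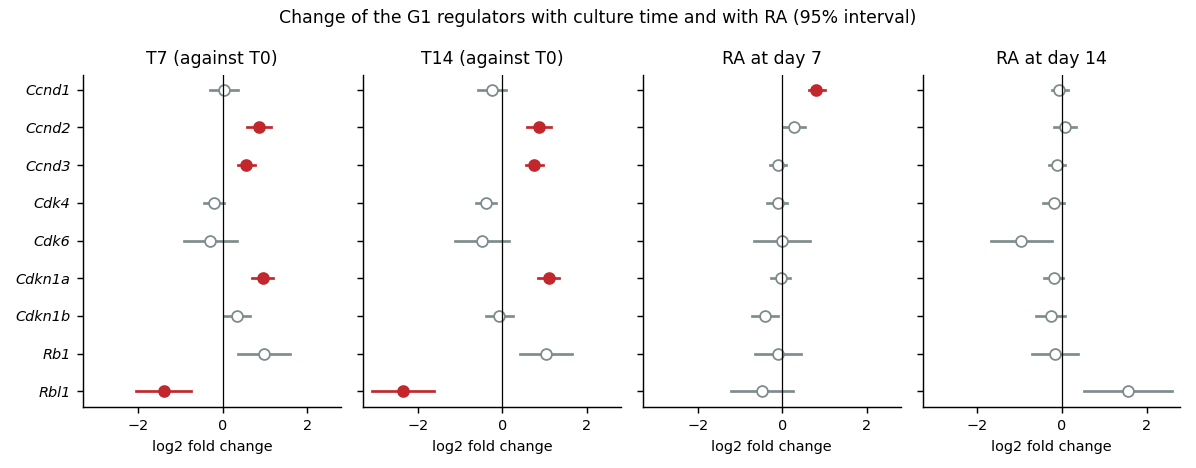
Log2 change of each G1 regulator at T7 and T14 (time terms of the model, against T0) and with RA at day 7 and at day 14 (+RA against -RA of the same day); points are estimates, lines are 95% intervals, and filled red points passed an adjusted p under 0.001 in edgeR. Cdkn1a, Ccnd2 and Ccnd3 are right of 0 and Rbl1 is left of 0 at both times, and Ccnd1 is the member called for RA, at day 7.

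Rbl1 is the pocket protein gene called over time and is known as an E2F target, so the stretch from 250 bases before to 50 bases after the start was read for the 6 members found in the RefSeq promoter table (build GRCr8, a later assembly than the Rnor_6.0 of the counts). Ccnd1, Ccnd2 and Cdk6 were not in that table. An E2F-type site was searched on both strands as TTTGGCGC, TTTGCCGC, TTTCGCGC or TTTCCCGC, and 2.14% of all 33469 promoters hold it. Rbl1 and Rb1 are the 2 members with a match, and both are shown with the matched letters in capitals.
Rbl1, chr3:166289327-166289626, minus strand: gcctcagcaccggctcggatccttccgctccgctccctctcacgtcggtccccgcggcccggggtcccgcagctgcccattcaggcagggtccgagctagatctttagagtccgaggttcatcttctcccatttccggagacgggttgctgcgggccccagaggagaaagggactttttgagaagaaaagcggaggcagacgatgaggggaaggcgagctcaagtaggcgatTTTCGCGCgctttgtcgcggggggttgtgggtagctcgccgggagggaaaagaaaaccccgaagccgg
Rb1, chr15:54911808-54912107, minus strand: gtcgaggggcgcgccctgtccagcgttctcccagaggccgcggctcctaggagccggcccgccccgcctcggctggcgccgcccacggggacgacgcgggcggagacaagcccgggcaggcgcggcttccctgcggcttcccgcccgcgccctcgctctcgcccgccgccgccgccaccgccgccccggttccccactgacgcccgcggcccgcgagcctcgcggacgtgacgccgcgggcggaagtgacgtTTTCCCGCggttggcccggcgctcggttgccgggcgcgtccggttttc

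The match in Rbl1 begins 18 bases before the start and that in Rb1 lies 3 bases after it. Of the pair with a match, Rbl1 fell at T14 and Rb1 had a log2 difference of 1.03 that did not pass the threshold. Of 383 tested genes with such a match, 14.6% fell and 4.7% rose at T14, beside 9.47% and 8.79% of the 8625 tested genes with a promoter in the table. These shares are a description, and a match is a run of letters, not a bound site.

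Cdk4 is a known MYC target and is shown for its E-boxes CACGTG, the letters MYC with its partner MAX is known to prefer, which 6.42% of promoters hold. It has 3 of them, in capitals, 203, 183 and 95 bases before the start, and the latter pair each overlap the nuclear receptor hexamer AGGTCA, found in 16.2% of promoters.
Cdk4, chr7:64771203-64771502, plus strand: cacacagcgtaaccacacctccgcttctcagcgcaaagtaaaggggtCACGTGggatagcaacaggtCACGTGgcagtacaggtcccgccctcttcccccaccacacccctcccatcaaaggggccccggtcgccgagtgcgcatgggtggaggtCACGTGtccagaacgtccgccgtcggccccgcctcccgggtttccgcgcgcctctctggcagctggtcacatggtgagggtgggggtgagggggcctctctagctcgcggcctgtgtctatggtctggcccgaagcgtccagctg

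No other member of the 6 holds CACGTG or AGGTCA in this window. The muscle-type E-box CAGCTG (15.1% of promoters) is in Cdk4 and Rbl1. The direct repeat of AGGTCA with a spacing of 5 bases, the DR5 element, with 0.00896% of promoters, and the cell cycle element TTTGAA or TTCGAA, with 19.7%, are in none of the 6.

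RA as an average over both days moved no member past the threshold. In edgeR 6.39% of all genes were called for the RA term (3.33% up and 3.07% down) and 0 of the 9 members, 2 of which had an unadjusted p under 0.05 (24.8% of all genes did), and DESeq2 and limma-voom also called 0. These were Ccnd1, with a log2 change of 0.38 (SE 0.12, adjusted p = 0.0362), and Cdkn1b, with −0.35 (SE 0.117, adjusted p = 0.0345). Ccnd1 passed when T14+RA replicate 3 was left out (log2 0.48, adjusted p = 0.000893). For the others the 95% interval of the RA change was −0.29 to 0.05 for Cdkn1a, −0.26 to 0.04 for Ccnd3, −0.02 to 0.37 for Ccnd2 and −0.33 to 0.03 for Cdk4, while the members with few counts were bounded less closely, between −0.94 and 0.06 for Cdk6, −0.52 and 0.25 for Rb1 and −0.43 and 0.83 for Rbl1. For the time step from day 7 to day 14, averaged over both arms, 6.89% of all genes were called in edgeR (3.65% up and 3.23% down) and 0 members, with 5 of 9 at an unadjusted p under 0.05 (26.6% of all genes), and 0 in DESeq2 and limma-voom. Within single arms, a comparison added after the data were seen, this step was called for Ccnd1 with RA (log2 −0.70, adjusted p = 1.42e-08, against 0.17 and adjusted p = 0.345 without RA) and for Rbl1 without RA (log2 −2.15, adjusted p = 0.000946, against −0.12 and adjusted p = 0.912 with RA), beside 4.67% of all genes called with RA and 2.95% without RA.

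The RA difference of Ccnd1 was large at day 7 and not detectable at day 14. At day 7, 3.17% of all genes were called (1.87% higher and 1.3% lower with RA), and 1 member was, Ccnd1, which was 1.76-fold higher with RA (log2 0.81, SE 0.0914, 95% interval 0.63 to 1.00, adjusted p = 1.44e-10 in edgeR). At day 14, 4.81% of all genes were called (2.46% higher and 2.35% lower) and 0 members in edgeR, DESeq2 or limma-voom, with 2 of 9 at an unadjusted p under 0.05 (21.6% of all genes), and the Ccnd1 difference was −0.06 (95% interval −0.24 to 0.13). The change in the RA effect from day 7 to day 14 was −0.87 (SE 0.13, adjusted p = 7.34e-06), where 0.743% of all genes passed the threshold of 0.05 used for this difference, 0.285% upward and 0.458% downward. Ccnd1 was the member called, and it was called in every alternative fit and with any 1 library left out. Mki67 did not move with Ccnd1: its RA difference at day 7 was −0.03 (95% interval −0.36 to 0.29), and 0 of the 9 proliferation genes were called there in edgeR, DESeq2 or limma-voom, with 3 at an unadjusted p under 0.05 in edgeR (17.2% of all genes). Among the myoblast markers, 2 were called for the difference between days. Myod1, a myogenic determination factor, was at 135 to 161 CPM in T7+RA against 76.3 to 95.9 in T7-RA, and at 56.2 to 77 against 63.7 to 95.6 on day 14 (difference of the RA changes −1.04, SE 0.266, adjusted p = 0.0369), and its RA change at day 7 alone was short of the threshold (adjusted p = 0.00106). Mymk, a membrane fusion factor, was at 27.1 to 36 CPM in T7+RA against 52.4 to 62.5 in T7-RA, and at 19.3 to 31.4 against 112 to 130.4 on day 14 (difference −1.34, SE 0.34, adjusted p = 0.0322). The part of these muscle genes in the Ccnd1 result was not tested.

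Rbl1 ran the other way, without passing the test. At day 7 the +RA libraries held 15.7, 13.4 and 15.4 CPM and the -RA libraries 19.1, 25.5 and 17.4, and at day 14 they held 10.6, 11 and 21.8 against 7.21, 5.31 and 0. Each +RA library was below each -RA library on day 7 and above each on day 14. The RA difference was −0.48 (SE 0.366) at day 7 and 1.56 (SE 0.522, adjusted p = 0.0392) at day 14, and their difference was 2.04 (SE 0.639, adjusted p = 0.156), on 0 to 19 counts per library. Cdk6 differed by −0.96 (SE 0.363, adjusted p = 0.0812) with RA at day 14 and by 0.00 at day 7, and the difference of the RA effects did not pass (−0.95, adjusted p = 0.623).

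**Figure D4:**
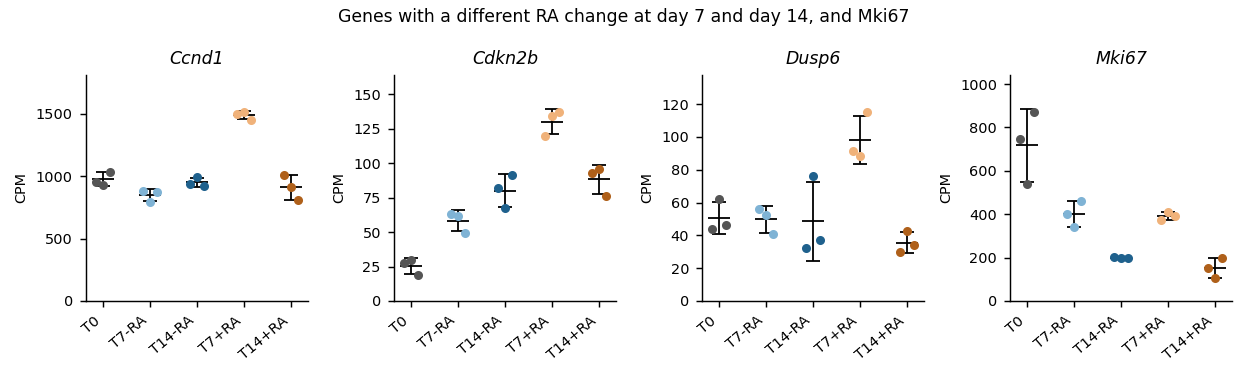
TMM-scaled CPM of Ccnd1, of Cdkn2b and Dusp6, whose RA change also differed between the days, and of Mki67 for comparison, in each of the 15 libraries; points are cultures, bars the mean and whiskers the SD (n = 3). In T7+RA, Ccnd1 (1453 to 1513 CPM), Cdkn2b (119.7 to 137) and Dusp6 (88.6 to 115) are at their highest, whereas Mki67 (373 to 409) is within the T7-RA range.

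Upstream of the D cyclins, 12 genes of the mitogen and MYC route were measured. Mxd4, a MYC antagonist, was at 34.5, 58.2 and 48.2 CPM in T0 and at 151 to 192 CPM in T14-RA, and it rose by log2 1.81 at T7 and 2.00 at T14 and was lower with RA (log2 −0.57, adjusted p = 3.76e-05). Mycn, a MYC family factor, fell at T14 (log2 −1.63, adjusted p = 5.73e-05) and was lower with RA (log2 −2.03, adjusted p = 1.14e-06) in edgeR. Its counts with RA were few, 8, 8 and 2 in T7+RA and 1, 3 and 1 in T14+RA. Spry2, a feedback inhibitor of growth factor signalling, rose at T14 and with RA (log2 1.5 and 1.01). Counted over the list, 1 gene rose and 0 fell at T7, 2 rose and 1 fell at T14, and 1 rose and 3 fell with RA, the latter with Fosl1, a part of the AP-1 factor (log2 −0.98). Over all genes 8.73%, 17.3% and 6.39% were called for these terms, so the counts over time in this model are near the background. With each arm alone set against T0, 6 of the 12 were called at T7 with RA (3 rose and 3 fell), where 10.4% of all genes were, and 1 without RA, where 8.78% were. Myc itself was not called at any term (T14 log2 −0.74, adjusted p = 0.0597). Dusp6, a phosphatase that is induced by and acts on ERK, had the day pattern of Ccnd1: 91.2, 88.6 and 115 CPM in T7+RA against 56.1, 52.4 and 40.7 in T7-RA, and 29.9, 42.4 and 34.4 against 32.4, 76.2 and 37.3 at day 14. Its RA difference was 0.96 at day 7 and −0.43 at day 14, and these differed (log2 −1.38, SE 0.335, adjusted p = 0.0221). By DESeq2 no gene of this list was called for RA at day 7.

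Of 4 INK4 inhibitors, which act on CDK4 and CDK6, 3 had a row, and Cdkn2d was not analysed here. Cdkn2b, the gene of p15, was at 27.6, 30 and 18.9 CPM in T0, at 63.2, 61.8 and 49.4 in T7-RA and at 81.7, 67.3 and 91.4 in T14-RA. With RA it was at 119.7, 134 and 137 CPM on day 7 and at 92.6, 95.9 and 76.1 CPM on day 14. In edgeR it rose at T7 (log2 1.46, SE 0.255, adjusted p = 1.25e-05) and T14 (log2 1.35, SE 0.257, adjusted p = 2.51e-05). RA raised it at day 7 (log2 1.15, adjusted p = 5.88e-07) but not detectably at day 14 (log2 0.15, 95% interval −0.21 to 0.50). This difference passed its test (log2 −1.01, SE 0.249, adjusted p = 0.0268), whereas the T7 and T14 terms assume the same RA change on both days. Within the arms, the day 14 libraries lay above the day 7 libraries without RA and below them with RA. An inhibitor of the D cyclin kinases and Ccnd1 itself were thus both at their highest in T7+RA. Cdkn2a, which encodes p16 and ARF, was at log2 0.98 (adjusted p = 0.00393) at T7 and 0.68 (adjusted p = 0.0463) at T14, and Cdkn2c, the gene of p18, at 0.34 and −0.08, none past the threshold.

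Downstream of the pocket proteins, some of the genes for entry into S phase fell. Of 8 genes of the cyclin E, cyclin A and CDK2 group, 1 fell at T7 and 3 at T14 and 0 rose, beside 4.44% and 8.85% of all genes that fell. The 3 were cyclin A2, Ccna2 (log2 −1.51, adjusted p = 1.53e-07), the CDK2 phosphatase Cdc25a (log2 −1.46) and Cdk2 itself (log2 −1.42), whose level went from 73.2 to 106 CPM in T0 to 30 to 40.7 CPM in T14-RA. The cyclin E genes Ccne1 (log2 0.24 at T7 and −0.09 at T14) and Ccne2 (log2 −0.11 and −0.57) were not called. For RA, edgeR, DESeq2 and limma-voom called 0 of these 8 genes, where edgeR called 6.39% of all genes, so 0 is near the background. In edgeR 0 of the 8 had an unadjusted p under 0.05 (24.8% of all genes did). In the list of E2F and DP factors with the third pocket protein, 10 of 11 had a row, and E2f1 was not analysed here. E2f4, a repressor-type E2F, fell at T7 (log2 −0.74, adjusted p = 0.000615), but was not called by DESeq2 or with library size scaling alone. E2f7, itself a target of E2F, fell at T14 (log2 −3.04, SE 0.387, adjusted p = 2.83e-09 in edgeR). This rests on 3 to 6 counts per library in T14-RA and 0 to 3 in T14+RA. E2f2 was lower with RA at day 14 (log2 −1.75, adjusted p = 0.000765 in edgeR), on 10, 4 and 4 counts in T14+RA, although not by DESeq2 or limma-voom. Rbl2, which encodes p130, the pocket protein of resting cells, stood at 33.5 to 37.5 CPM in T0 and at 60.2 to 67.7 CPM in T14-RA, with no overlap (log2 0.86, SE 0.225, adjusted p = 0.00173, short of the threshold).

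Mybl2 and Foxm1, transcription factors of the later cycle, fell. They were the 2 genes called at both times among 7 of the MuvB core and MYB list, beside 8.73% of all genes called at T7 and 17.3% at T14, and the list's median log2 change was −0.01 at T7 and −0.13 at T14. Mybl2 went from 165 to 169.7 CPM in T0 to 24 to 53.1 CPM in T14-RA (log2 −2.47, SE 0.19, adjusted p = 1.27e-16) and Foxm1 changed by log2 −1.71 (SE 0.203, adjusted p = 4.39e-10). Of the 9 readout genes, Cdc6, a replication licensing factor, fell most at T14 (log2 −2.79), followed by Mki67 (log2 −1.95), the ribonucleotide reductase subunit Rrm2 (log2 −1.92) and thymidine kinase Tk1 (log2 −1.87), with a list median of −1.42 beside 0.05 over all genes. With RA 1 of the 9 was called, the helicase subunit Mcm2 (log2 −0.59, SE 0.114, adjusted p = 6.15e-05), beside 3.07% of all genes that were lower with RA. The summed level of the readout genes was 1166 to 1238 CPM in T7+RA against 1369 to 1416 in T7-RA, and 506 to 635 in T14+RA against 698 to 781 in T14-RA, lower with RA on both days without overlap.

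A list of genes linked to growth arrest, not all of which act to stop the cycle, was read beside Cdkn1a. Of its 11 genes, 4 rose and 0 fell at T7, and 4 rose and 0 fell at T14. With RA 5 rose and 0 fell. Over all genes 4.29%, 8.47% and 3.33% rose for these terms. Gadd45a, a growth arrest gene, was at 18.9 to 33.8 CPM in T0, 179 to 192 in T14-RA and 489 to 605 in T14+RA, with a log2 change of 2.97 at T14 (SE 0.199, adjusted p = 4.8e-19) and 1.42 for RA (SE 0.0989, adjusted p = 3.97e-18). Sesn1 (log2 1.72) and cyclin G1, Ccng1 (log2 1.05), also rose at T14. With RA, Plk2 (log2 0.96), Btg2 (log2 0.66), Mdm2 (log2 0.49) and Ccng1 (log2 0.35) rose beside Gadd45a, whereas Cdkn1a was at −0.12 (95% interval −0.29 to 0.05).

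Among the ubiquitin ligase genes that turn over p27 and the cyclins, 10 were measured, 1 rose at T7 and 2 rose at T14, beside 4.29% and 8.47% of all genes. These were the SCF ligase genes Skp1, the adaptor (T14 log2 0.78), and Cul1, the scaffold (log2 0.62), while Skp2, the subunit that recognises p27, was at log2 −1.14 (adjusted p = 0.00137), short of the threshold. Of 12 FOXO and quiescence genes 11 had a row, and 2 rose and 3 fell at T14, beside 17.3% of all genes called. Pik3ip1, an inhibitor of PI3-kinase, rose (log2 1.66) and was lower with RA (log2 −1.05), Gas6 rose (log2 0.54), and Klf2 (log2 −2.30), Cited2 (log2 −0.97) and Klf6 (log2 −0.91) fell. Klf4 was lower with RA (log2 −2.50, SE 0.208, adjusted p = 1.1e-14).

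**Figure D5:**
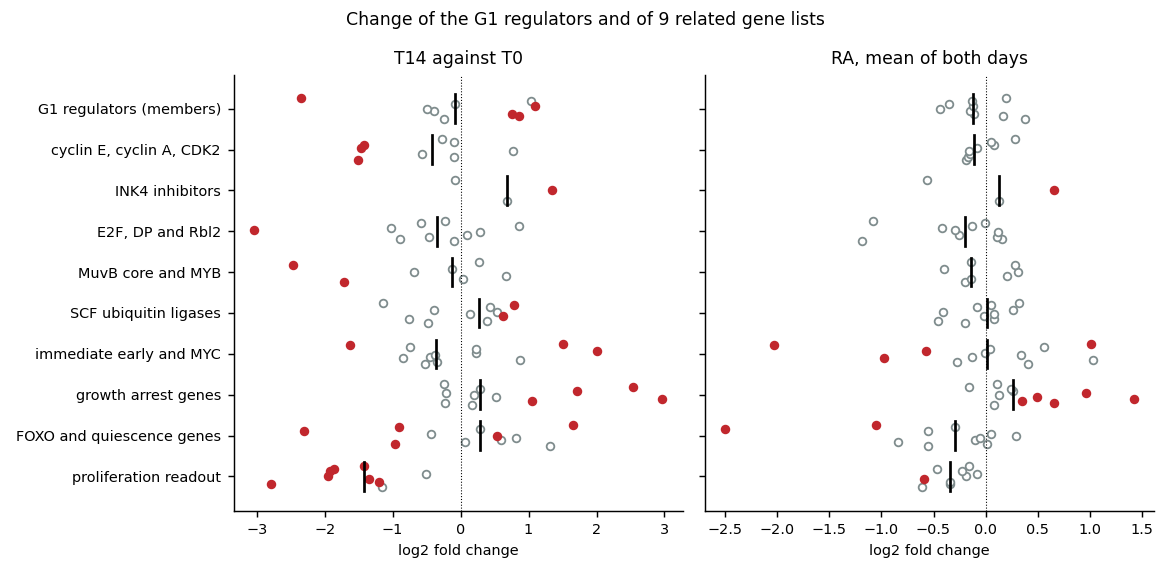
Log2 change of each measured gene in the G1 regulators and 9 related lists, at T14 against T0 (left) and for the RA term (right); each circle is a gene, filled red circles passed an adjusted p under 0.001 in edgeR, and the vertical bar is the list's median. The proliferation readout lies wholly left of 0 at T14 with a median of −1.42, and the G1 regulators lie on both sides with a median of −0.08.

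The genes whose log2 CPM ran most closely with each called member were sought over the 15 libraries among 6389 genes with a mean count of at least 20, and 6390 for Rbl1, as a description only, since the libraries share 5 groups and time dominates them. For Ccnd3 they were Acta1 (Pearson r = 0.98), AABR07052585.2 (0.978) and Myh3 (0.976), of which the named ones encode skeletal actin and embryonic myosin. For Cdkn1a they were RGD1304884 (0.949), Chrnd (0.948), a subunit of the muscle acetylcholine receptor, and Zcchc24 (0.946). For Ccnd2 they were Atp7a (0.928), Slc30a4 (0.913) and Naa15 (0.903), and for Rbl1, with few counts, Stt3b (0.886), Hdgfl2 (0.884) and Zfp180 (0.882).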

How the data were processed

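Poly(A) RNA of 15 H9c2 cultures was sequenced from stranded libraries. The authors deposited raw read counts per gene. According to the submitters' processing notes, reads were aligned to Rnor_6.0 with HISAT2 and counted with featureCounts, and whether strand was used in counting is not given in the sources used here. The smallest sum of counts over the 15 libraries in the table was 21, so genes below this were not analysed here. Gene symbol, cytoband and a transcript length per gene were taken from the same deposited table.

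Counts were analysed in R 4.3.3 with edgeR 4.0.16 (TMM scaling, robust quasi-likelihood fit and test, Benjamini-Hochberg over 11574 genes). Time and RA terms came from an additive model, and RA at each day and the difference between days from a model with 1 mean per group. Calls were made at an adjusted p under 0.001, or 0.05 for the difference. SE is the log2 change divided by the root of F, intervals are 95%, and levels are CPM or CPM per kb of the listed length. A floor is 3 counts in a library. Intervals cover the spread between cultures and counting error only, and a floor covers counting error in a library only. The 3 cultures of a group are described by the study as biological replicates. Scripts were tested on simulated data. Alternatives were limma 3.58.1 (voom), DESeq2 1.42.0, other scalings, a low-count filter, a replicate block, other thresholds, each library left out and, added after the data were seen, each arm against T0.

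The members, gene lists and tests were chosen with earlier results of these data known. Named genes are all members, up to 4 called genes per list and term with the largest change, lists of 4 or fewer genes in full, and Rbl2, Mki67 and Tgm2. Gas6, Ccng1 for RA, Myc, Ccne1, Ccne2, Skp2, Cdk1, Ccnb1, Top2a, Pcna and the marker genes were named after their values were seen. Pairs of replicates differed by more than sampling noise in all 15 pairs. Some genes of the growth arrest list are not reported here.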

Additional observations from a re-analysis of the deposited data

Results flagged for a closer look

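The RA change of Ccnd1 differed between the days: at day 14 it was −0.87 log2 units from that at day 7 (edgeR, adjusted p = 7.34e-06), with each of the 3 T7+RA libraries above each T7-RA library and the day 14 groups overlapping. The RA change of Rbl1 was 2.04 log2 units higher at day 14 than at day 7, with each +RA library below each -RA library on day 7 and above each on day 14, and this difference did not pass the test (adjusted p = 0.156). Groups of 3 cultures are too small for an outlier test of single libraries.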

How the results depend on the processing

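Of 1437 values of members under other settings, 1355 kept direction and side of the threshold, 18 lost a call, 13 gained one and 51 changed sign, none of them a called value. The 18 lost calls were all the T7 fall of Rbl1 (of 24 alternatives, adjusted p 0.000171 to 0.00941). Replicate numbers were not taken as pairs, since r of the deviations was over 0.1 in 8 of 30 pairs with equal numbers (mean 0.0541), though in 2 of 60 with unequal ones (mean −0.027), and with a replicate block 3 members were called at T7 instead of 4, with the other member counts as before. The cause of these shifts was not tested. Library size scaling alone moved the median log2 change of all genes to 0.13 at T7 and 0.15 at T14. All-gene calls moved by over 1.5 times at a threshold of 0.05 (2679 at T7, 4102 at T14, 1701 for RA, 1870 for day 14 minus day 7, 858 and 1291 for RA at day 7 and 14), at 0.001 for the difference between days (25 instead of 86), without T0 replicate 1 (655 at T7) and, for day 14 minus day 7, within the -RA arm (342), while the difference between days gave 51 to 57 without any of T14-RA replicate 1, T7+RA replicates 2 and 3 and T14+RA replicate 1. Of 351 called counts over the other lists, 314 stayed within 1.5 times. Among the members, depth limits Rbl1, Cdk6 and Rb1, with 0 to 35 counts per library.

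At a threshold of 0.05, 2 members instead of 0 were called for RA, 2 instead of 0 for day 14 minus day 7 and 1 instead of 0 for RA at day 14. Within the -RA arm 1 member, Rbl1, was called for day 14 minus day 7, and within the +RA arm 1, Ccnd1. Leaving out 1 library gave 0 to 1 members for RA, the 1 being Ccnd1 without T14+RA replicate 3. Sign changed for Ccnd1 within the -RA arm at T7 (−0.20) and for day 14 minus day 7 (0.17), and there for Cdk6 (0.22). It changed for Ccnd2 at day 14 minus day 7 with limma-voom (−0.02), the replicate block (−0.01) and within the +RA arm (−0.10), for Cdkn1b at T7 within the +RA arm (−0.05) and at T14 by library size only (0.03), and for Cdk6 with RA at day 7 with relative log expression factors, filtering and DESeq2 (0.00 each). Leaving out 1 library gave ranges across 0 for Ccnd1 at T7 (−0.01 to 0.14) and RA at day 14 (−0.14 to 0.02), Ccnd2 at day 14 minus day 7 (−0.07 to 0.11) and RA at day 14 (−0.07 to 0.27), Cdk6 (−0.28 to 0.20), Cdkn1a (−0.09 to 0.03) and Rb1 (−0.35 to 0.11) with RA at day 7, Cdkn1b at T14 (−0.13 to 0.01), and Rb1 at day 14 minus day 7 (−0.05 to 0.15). For the difference of the RA effects the ranges were −0.06 to 0.04 for Ccnd3, −0.22 to 0.01 for Cdk4, −0.09 to 0.23 for Cdkn1b and −0.29 to 0.19 for Rb1.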
